A study of Mus musculus with 20 samples.

Results

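The small proline-rich protein 2 (SPRR2) genes are a run of closely similar paralogs in the epidermal differentiation complex of mouse chromosome 3. The 7 genes described here, Sprr2b, Sprr2d, Sprr2e, Sprr2f, Sprr2g, Sprr2h and Sprr2k (Entrez IDs 20756, 20758, 20759, 20760, 20761, 20762 and 20765), were those on a given list of paralogs that had an array feature naming exactly 1 gene. They stand among 22180 genes measured in the same way. Each had 1 such feature, and Sprr2g is annotated in RefSeq as a transcribed pseudogene. Of the 13 features that name an SPRR2 gene, 5 name several genes and were not used, among them all those for the Sprr2a genes and Sprr2i. How far each of the remaining features separates paralogs of similar sequence was not tested.

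SPRR2 proteins are precursors of the cornified envelope, the shell of crosslinked protein that replaces the plasma membrane of the outermost keratinocytes. Transglutaminases join their glutamine- and lysine-rich ends to loricrin, involucrin and other envelope proteins, and their proline-rich repeats act as flexible bridges. In resting skin the family is little expressed between the hair follicles, and it is known as a stress response of epithelium that is switched on by wounding, ultraviolet light, inflammation and barrier damage.

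The values come from abdominal skin of 20 C57/B6 mice aged 9 weeks, with 1 Affymetrix array per mouse and 5 mice per group. In the groups CD-vehicle and CD-IMQ the mice ate control chow, and in HFD-vehicle and HFD-IMQ a high fat diet. The shaved abdomen of the IMQ groups received 62.5 mg of a cream with 5% imiquimod each day for 5 days, that of the other groups received vehicle, and all mice were killed 24 h after that. Imiquimod activates Toll-like receptor 7, and the cream is widely used to bring on psoriasis-like inflammation in mice. Whole skin was assayed, so a change in the number of cells of a type and a change in the RNA per cell cannot be told apart, and how long the diet lasted is not given in the sources used here.

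The arrays had medians between 2.86 and 3.04 on the log2 scale of the deposited values. Values that do not exceed these medians are close to background, and a change that starts there is uncertain in size. Markers of suprabasal keratinocytes averaged between 8.09 and 9.51 over the groups and those of basal keratinocytes between 6.43 and 6.82, far above the array medians. HFD-vehicle 3 stood apart, holding 42.8% of the summed squared deviations within HFD-vehicle across genes, and had a mean of 9.61 for 10 hair shaft and inner root sheath markers, against 6.51 to 7.55 in the other mice of its group.

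Sequences upstream of the genes are shown because the members differed in how far they rose while sharing the same elements at nearly the same positions. RefSeq promoters (GRCm38.p6, 250 bases before to 50 after the gene start) were found for 6 of the 7 genes and not for Sprr2g. The 4 printed here belong to Sprr2d and Sprr2e, which rose strongly with the cream, and to Sprr2f and Sprr2k, the members with the smallest estimates. They lie on the plus strand at chr3:92338890-92339189, chr3:92351893-92352192, chr3:92364937-92365236 and chr3:92432332-92432631. Capitals mark the AP-1 motif TGAGTCA or its reverse complement, the octamer motif ATTTGCAT and the TATA box TATAAA.
Sprr2d: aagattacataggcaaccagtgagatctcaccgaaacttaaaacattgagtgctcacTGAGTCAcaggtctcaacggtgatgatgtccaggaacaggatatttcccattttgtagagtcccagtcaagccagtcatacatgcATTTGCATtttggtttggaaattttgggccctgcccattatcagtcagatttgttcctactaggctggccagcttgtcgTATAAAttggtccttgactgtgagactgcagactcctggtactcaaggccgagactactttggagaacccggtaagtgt
Sprr2e: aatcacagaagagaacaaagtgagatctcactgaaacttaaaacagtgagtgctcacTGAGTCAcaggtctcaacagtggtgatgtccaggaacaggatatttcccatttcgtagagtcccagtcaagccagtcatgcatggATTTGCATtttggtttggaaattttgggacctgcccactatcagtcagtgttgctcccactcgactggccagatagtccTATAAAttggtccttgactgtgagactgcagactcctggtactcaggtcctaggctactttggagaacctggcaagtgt
Sprr2f: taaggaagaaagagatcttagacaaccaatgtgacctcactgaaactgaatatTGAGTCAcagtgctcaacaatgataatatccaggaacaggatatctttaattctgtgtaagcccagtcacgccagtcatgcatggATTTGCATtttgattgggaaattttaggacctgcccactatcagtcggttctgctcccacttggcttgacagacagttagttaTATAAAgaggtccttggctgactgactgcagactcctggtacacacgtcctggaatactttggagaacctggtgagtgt
Sprr2k: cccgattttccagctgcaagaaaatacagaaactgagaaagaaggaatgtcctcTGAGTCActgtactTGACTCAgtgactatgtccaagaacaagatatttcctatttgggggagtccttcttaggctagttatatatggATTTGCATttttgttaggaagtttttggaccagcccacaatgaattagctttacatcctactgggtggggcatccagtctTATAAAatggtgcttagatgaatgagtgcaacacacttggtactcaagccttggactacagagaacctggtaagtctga
Both strands were searched and no matches overlapped. All 6 promoters held the AP-1 motif, which 5.2% of 32851 RefSeq promoters of the same length held, the octamer, held by 1.74%, and the TATA box, held by 13.6%. All 3 stood together in 12 promoters (0.0365%), of which 6 were these. Counting the start base as 0, the TATA box began at -29 in every one, the octamer between -112 and -108 and the first AP-1 match between -198 and -193. Sprr2k had a further AP-1 match at -182. An interferon-response-like and an NF-kB-like motif, found in 3.44% and 0.155% of all promoters, had no match in the 6. Over the whole alignment Sprr2d and Sprr2e shared 88.7% of positions, Sprr2h and Sprr2k 81.8%, and Sprr2f and Sprr2h 58.7%. The motifs were chosen after the sequences had been seen, and a match describes letters, not a bound site.

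The first comparison asked what imiquimod changed in chow-fed mice. Sprr2b, Sprr2d, Sprr2e, Sprr2f, Sprr2g and Sprr2h rose, so that 6 of 7 members passed, and none fell. Across all genes tested, 3.91% passed upward and 7.02% downward. The median change of the 7 members was 2.25 on the log2 scale, where the median of all genes was 0.016.

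Sprr2d changed most. Its log2 values in CD-vehicle were 1.19, 2.50, 1.21, 3.54 and 1.41, and in CD-IMQ 7.42, 7.61, 7.73, 7.59 and 8.13. The groups were far apart, the treated mice close together and the untreated ones spread around background, with CD-vehicle 4 the highest. The rise was log2 5.73 ± 0.42 (SE, 53-fold, limma adjusted p = 3.18e-09). With every value below its array's median raised to that median, a setting chosen after seeing the data, it was 4.62.

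Sprr2e was near background in all chow-fed vehicle mice, with log2 values of 2.74, 2.44, 2.33, 2.50 and 2.25. After the cream it read 6.65, 6.07, 6.57, 6.53 and 7.34. No treated mouse came near an untreated one, and the rise was 4.18 ± 0.29 (SE, adjusted p = 1.44e-09).

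Sprr2b had the only chow-fed vehicle baseline of the 7 that lay above the array medians in every mouse, at 3.60, 4.50, 4.93, 4.64 and 3.69. In CD-IMQ it read 7.61, 7.72, 7.94, 8.16 and 8.70. Its rise of log2 3.75 ± 0.34 (13.5-fold, adjusted p = 1.05e-07) therefore started from a measurable level and did not move when low values were raised to the median.

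Sprr2h went from 1.70, 2.58, 1.98, 2.70 and 2.67 in CD-vehicle to 4.27, 4.68, 4.80, 4.09 and 5.05 in CD-IMQ, a rise of 2.25 ± 0.24 (adjusted p = 1.39e-06). The annotated pseudogene Sprr2g went from 1.85, 1.93, 2.04, 1.96 and 1.94 to 3.57, 3.82, 4.10, 3.18 and 4.74, a rise of 1.94 ± 0.22 (adjusted p = 4.18e-06). Both started below the array medians in all 5 mice and ended above them, with no overlap between groups. With low values raised to the array median the rise was 1.63 for Sprr2h (adjusted p = 5.98e-05) and 0.94 for Sprr2g (0.0134).

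Sprr2f and Sprr2k remained close to background. Sprr2f read 2.24, 2.26, 2.44, 2.31 and 2.67 in CD-vehicle and 3.20, 2.69, 3.41, 2.56 and 3.50 in CD-IMQ. CD-IMQ 4 lay inside the range of the untreated mice. The difference of 0.69 ± 0.19 passed (adjusted p = 0.0225), but not without CD-vehicle 1 (adjusted p = 0.0535), CD-IMQ 3 (0.067) or CD-IMQ 5 (0.0766), and not with low values raised to the array median (log2 0.27, adjusted p = 0.35). Sprr2k read 2.27, 2.38, 2.04, 2.05 and 2.92 in CD-vehicle and 2.84, 2.65, 2.74, 2.42 and 2.43 in CD-IMQ, groups that overlapped, and its difference was 0.28 ± 0.21 (95% interval -0.15 to 0.72, adjusted p = 0.454). In 5 of the 7 members every treated mouse lay above every untreated one, as in 3.78% of all genes.

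**Figure D1:**
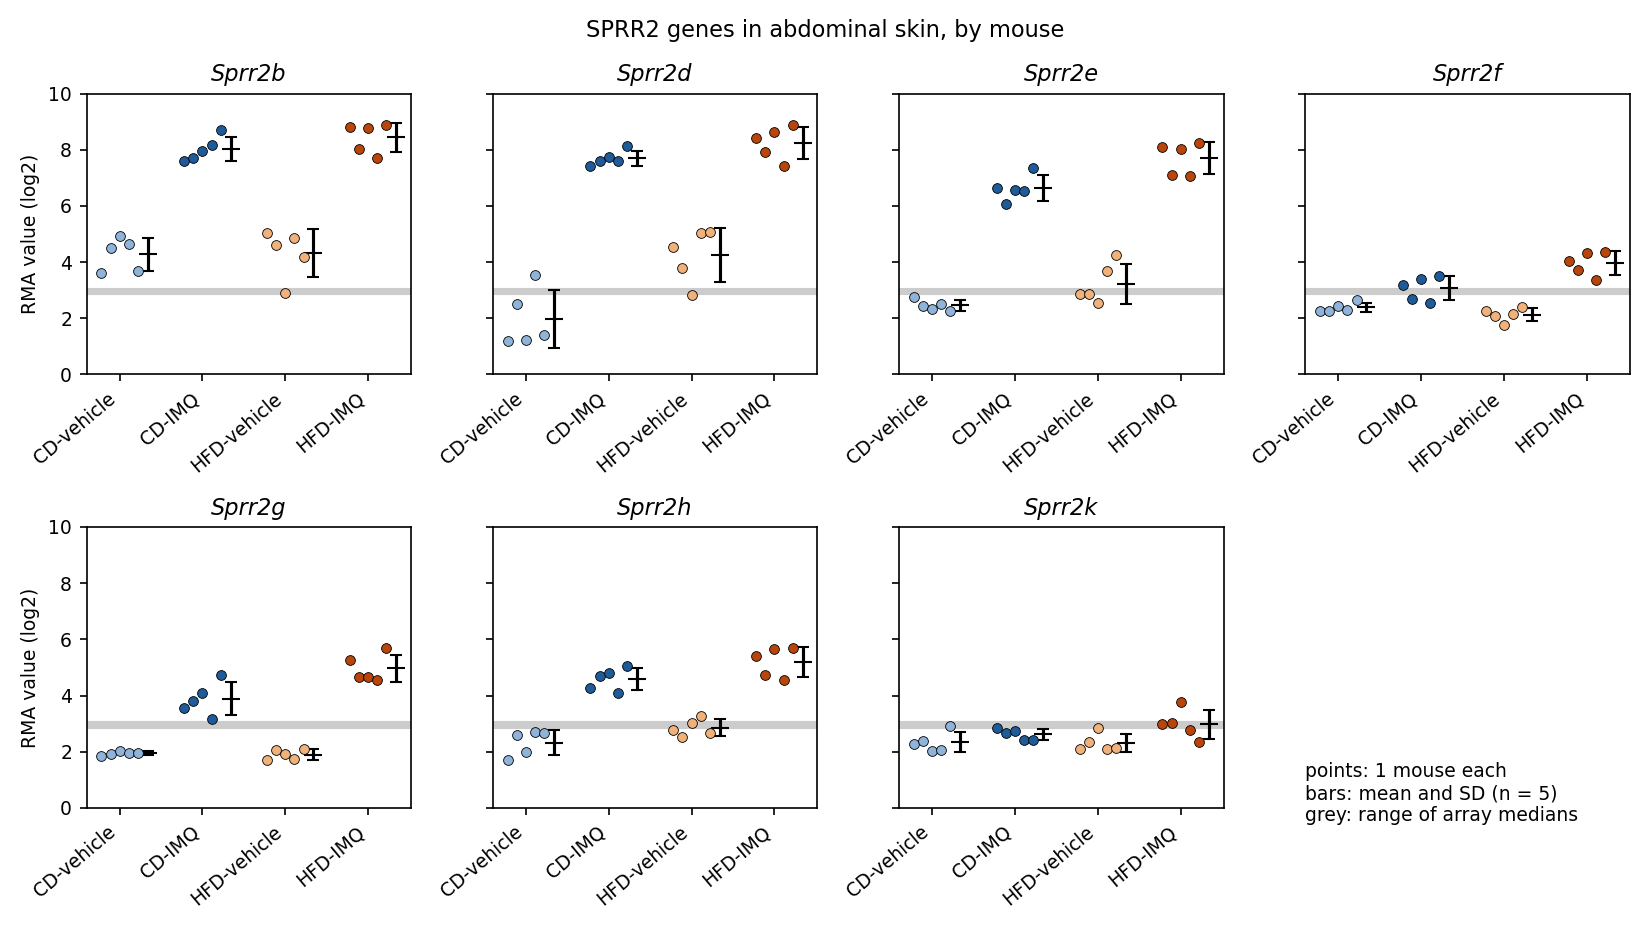
Log2 value of each SPRR2 gene (vertical axis) in each of the 4 groups (horizontal axis), with 1 point per mouse, a bar for the mean and SD of 5 mice and a grey band for the range of array medians, 2.86 to 3.04. Sprr2b, Sprr2d and Sprr2e reach 6.07 or more in every treated mouse, while Sprr2k stays between 2.04 and 3.79 in all groups.

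The second comparison asked the same in mice on the high fat diet. Sprr2b, Sprr2d, Sprr2e, Sprr2f, Sprr2g and Sprr2h rose again, 6 of 7, and none fell, where 3.65% of all genes passed upward and 2.24% downward. The median change of the 7 was log2 3.07 against -0.0007 over all genes. In 6 members the groups did not overlap, as in 3.67% of all genes.

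In HFD-vehicle Sprr2b read 5.02, 4.62, 2.90, 4.87 and 4.18, and in HFD-IMQ 8.79, 8.01, 8.78, 7.72 and 8.86. HFD-vehicle 3 was the low mouse of its group. The rise was 4.11 ± 0.34 (adjusted p = 6.33e-08), and 3.76 without HFD-vehicle 3.

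Sprr2e read 2.85, 2.85, 2.53, 3.67 and 4.26 in HFD-vehicle and 8.08, 7.09, 8.01, 7.05 and 8.25 in HFD-IMQ. HFD-IMQ 2 and HFD-IMQ 4 lay below the other 3 treated mice. Its rise of 4.46 ± 0.29 (22.1-fold, adjusted p = 1.84e-09) exceeded the spread in both groups and was 4.29 without HFD-vehicle 3.

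Sprr2d read 4.54, 3.79, 2.82, 5.04 and 5.07 in HFD-vehicle and 8.40, 7.90, 8.61, 7.43 and 8.87 in HFD-IMQ. Its untreated mice were above background except HFD-vehicle 3, unlike most of those on chow. The rise was 3.99 ± 0.42 (adjusted p = 1.35e-06), or 3.63 without HFD-vehicle 3.

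Sprr2g read 1.70, 2.07, 1.91, 1.73 and 2.09 in HFD-vehicle and 5.26, 4.66, 4.67, 4.56 and 5.68 in HFD-IMQ, a rise of 3.07 ± 0.22 (adjusted p = 1.01e-08). Sprr2f read 2.27, 2.07, 1.77, 2.14 and 2.39, then 4.03, 3.73, 4.31, 3.35 and 4.36, a rise of 1.83 ± 0.19 (adjusted p = 1.41e-06) with no overlap between groups. Sprr2h read 2.78, 2.51, 3.03, 3.26 and 2.68, then 5.40, 4.73, 5.67, 4.56 and 5.69, a rise of 2.36 ± 0.24 (adjusted p = 8.74e-07). These 3 started near or below the array medians, and all 5 treated mice lay above them. With low values raised to the array median the rise was 2.03 for Sprr2g (adjusted p = 3.07e-05), 1.02 for Sprr2f (0.000349) and 2.18 for Sprr2h (4.9e-06).

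Sprr2k read 2.09, 2.36, 2.84, 2.09 and 2.13 in HFD-vehicle and 2.98, 3.02, 3.79, 2.76 and 2.34 in HFD-IMQ. HFD-IMQ 5, among the highest mice for the other members, was the lowest of its group here and overlapped the untreated mice. The difference of 0.68 ± 0.21 (95% interval 0.24 to 1.11) did not pass over all genes (adjusted p = 0.0606). It passed without CD-vehicle 5 (adjusted p = 0.0438), HFD-vehicle 3 (0.0217) or HFD-IMQ 5 (0.0172) and with array weights (0.024), and with low values raised to the array median it was 0.18 (adjusted p = 0.602).

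**Figure D2:**
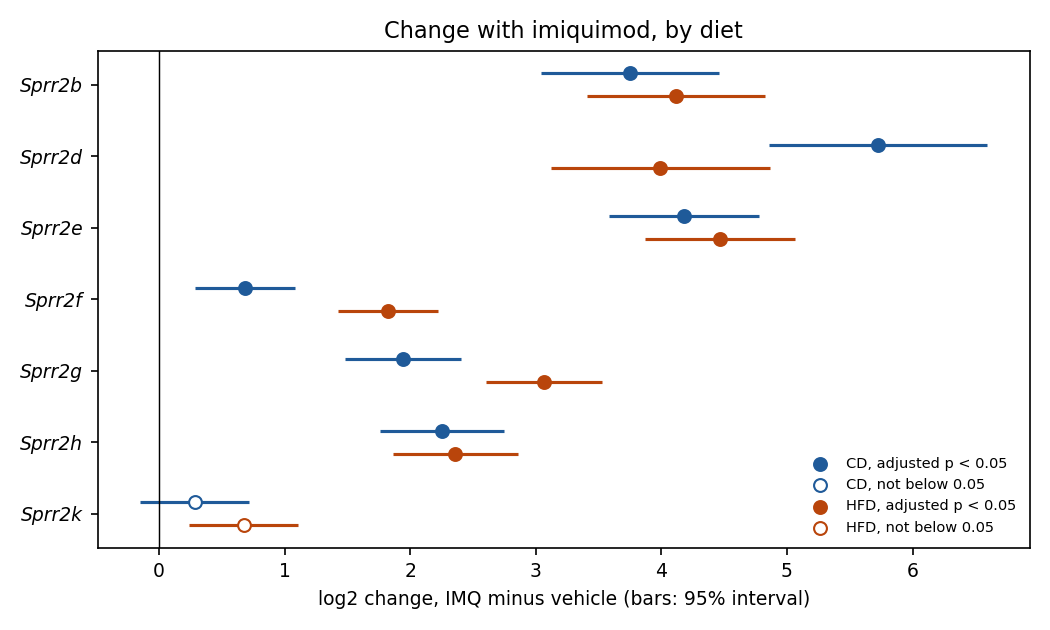
Log2 change of each SPRR2 gene from vehicle to imiquimod (horizontal axis, point and 95% interval) in chow-fed (blue) and high-fat-fed mice (orange), with filled points for adjusted p below 0.05. Sprr2b, Sprr2d and Sprr2e rose by 3.75 to 5.73 log2 units, and both estimates for Sprr2k are open points below 1.

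Whether the paralogs rose by different amounts was tested on the difference between 2 members within each array, compared between treated and untreated mice of a diet by a two-sided exact permutation test, with p-values adjusted over all 42 pairs and diets. With 5 mice against 5 the smallest possible p was 0.00794, which became 0.0107 after adjustment. In chow-fed mice 18 of 21 pairs passed and in high-fat-fed mice 16 of 21. Sprr2d rose by 5.44 ± 0.56 (SE) more than Sprr2k on chow and by 3.32 ± 0.66 more on the high fat diet (exact permutation, adjusted p = 0.0107 for each).

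Sprr2b minus Sprr2e was -0.43 ± 0.33 on chow (exact permutation adjusted p = 0.275) and -0.35 ± 0.42 on the high fat diet (0.423). Sprr2d exceeded Sprr2e by 1.55 ± 0.48 on chow (exact permutation adjusted p = 0.0312), and on the high fat diet the difference was -0.47 ± 0.26 (0.132). The other pairs that did not pass were Sprr2g with Sprr2h and Sprr2f with Sprr2k on chow, and Sprr2b with Sprr2d, Sprr2f with Sprr2h and Sprr2d with Sprr2g on the high fat diet. Where a baseline lies near background the size of a rise is uncertain, so these differences compare measured changes and not amounts of RNA.

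The third comparison set the diets against each other in vehicle-treated skin. Sprr2d was higher on the high fat diet, by log2 2.28 ± 0.42 (4.86-fold, adjusted p = 0.0045), and was the 1 member of 7 that passed, where 1.22% of all genes passed upward and 0.956% downward. The groups overlapped: HFD-vehicle 3, at 2.82, lay below CD-vehicle 4, at 3.54, and the other 4 mice of each diet were apart. Without HFD-vehicle 3 the difference was 2.64 (adjusted p = 0.000411). It no longer passed when the fit held the vehicle groups alone (adjusted p = 0.0568), or when values below the array median were raised to it (log2 1.18, adjusted p = 0.0998).

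The other members did not pass in vehicle skin. Sprr2e differed by 0.78 ± 0.29 (adjusted p = 0.178), with all HFD-vehicle mice but mouse 3 above the chow-fed ones, and Sprr2h by 0.53 ± 0.24 (0.303). With low values raised these were 0.38 and 0.08. Estimates for Sprr2b (0.05 ± 0.34), Sprr2g (-0.04 ± 0.22), Sprr2k (-0.03 ± 0.21) and Sprr2f (-0.25 ± 0.19) lay near 0, the last 3 from values near background in both diets. Their 95% intervals reached 0.75 for Sprr2b, 0.42 for Sprr2g and 0.40 for Sprr2k, so a higher level of up to that size lies within them.

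The fourth comparison did the same in imiquimod-treated skin. No gene of the 22180 passed (0%), so 0 of 7 members did, while 4 members had an unadjusted limma p below 0.05, as did 10.3% of all genes. All 7 estimates were higher on the high fat diet, with a median of 0.63 against -0.001 over all genes. They were 1.08 ± 0.22 for Sprr2g (adjusted p = 0.198), 1.06 ± 0.29 for Sprr2e (0.27), 0.89 ± 0.19 for Sprr2f (0.243) and 0.63 ± 0.24 for Sprr2h (0.388). The remaining 3 were 0.55 ± 0.42 for Sprr2d, 0.41 ± 0.34 for Sprr2b and 0.36 ± 0.21 for Sprr2k. The diets overlapped in every member, while 0.992% of all genes were higher on the high fat diet without overlap.

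Leaving out single mice changed the count. Without HFD-IMQ 4, Sprr2f (adjusted p = 0.0355) and Sprr2g (0.0486) passed, and without CD-IMQ 5 Sprr2g did (0.0367). HFD-IMQ 4 was the lowest of its group for 6 of the 7 members and CD-IMQ 5 the highest of its group for 6. Leaving out either therefore raises the estimates of those members. The share of all genes that passed without these mice is not given here, so these calls have no background to be set against.

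**Figure D3:**
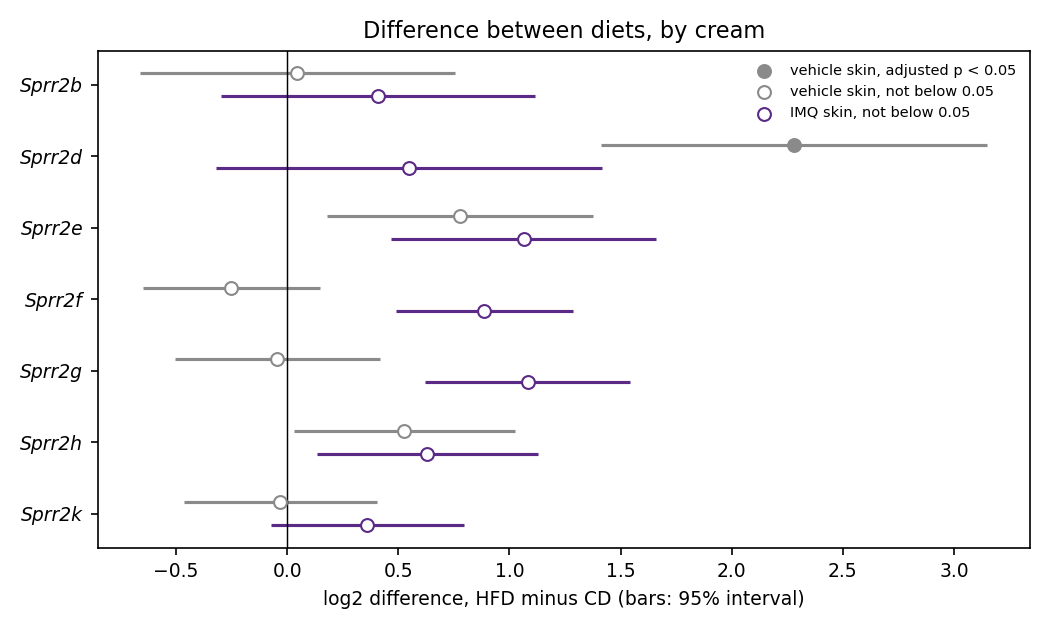
Log2 difference of each SPRR2 gene between diets, high fat minus chow (horizontal axis, point and 95% interval), in vehicle skin (grey) and imiquimod skin (purple), with filled points for adjusted p below 0.05. Sprr2d in vehicle skin, at 2.28, is the only filled point, and all 7 estimates in imiquimod skin lie above 0.

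The interaction asks whether the rise with imiquimod differed between diets. No member passed, where 0.473% of all genes passed with a positive and 0.189% with a negative term. The term is the change on the high fat diet minus that on chow. A positive term can thus be a larger rise or a smaller fall on the high fat diet. An unadjusted limma p below 0.05 was found for 3 members and for 15.9% of all genes. Sprr2f had the term nearest the threshold, with a rise 1.14 ± 0.27 log2 units larger on the high fat diet (adjusted p = 0.0531), followed by Sprr2g (1.13 ± 0.32, adjusted p = 0.0887). For Sprr2d the rise was smaller on the high fat diet by an estimate of -1.73 ± 0.59 (adjusted p = 0.147). With low values raised to the array median the estimate was -0.64 for Sprr2d (adjusted p = 0.644) and 0.75 for Sprr2f (0.0995). The other terms were 0.36 ± 0.48 for Sprr2b, 0.29 ± 0.41 for Sprr2e, 0.10 ± 0.34 for Sprr2h and 0.39 ± 0.30 for Sprr2k. The term for Sprr2f fell below the threshold after quantile normalization (adjusted p = 0.0484), centring of the arrays (0.0378) or array weights (0.0406). It also did so without CD-IMQ 3 (0.0486), CD-IMQ 5 (0.0478), HFD-vehicle 5 (0.0477) or HFD-IMQ 4 (0.018), and Sprr2g passed without CD-IMQ 5 (0.0321).

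In the imiquimod-treated groups most members were high or low in the same mice, and less so in the vehicle groups. In CD-IMQ, mouse 5 had the highest value of 6 of the 7 members, all but Sprr2k. In HFD-IMQ, mouse 5 was again highest for 6 and mouse 4 lowest for 6, the exception in both being Sprr2k. HFD-IMQ 4 lay on average 0.58 log2 units below its group over the 7 members and CD-IMQ 5 lay 0.48 above. In HFD-vehicle, mouse 3 was lowest for 4 members and on average 0.46 below its group, while mouse 5 was highest for 4. Mouse 3 was yet the highest for Sprr2k (2.84) and lay above the group mean for Sprr2h (3.03). In CD-vehicle mouse 1 was lowest for 5 members, but no mouse was highest for more than 2. The share of all genes that were highest or lowest in these mice is not given here, so the counts have no background.

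HFD-IMQ 4 had the highest mean of 7 adipocyte markers in its group, 9.16 against 7.12 to 8.05, and held 30.0% of the summed squared deviations within its group. Its neutrophil mean, 5.94 against 5.32 to 5.88, and its sebaceous gland mean, 7.25 against 6.04 to 6.84, were also the highest. Its basal keratinocyte mean was the lowest, 6.41 against 6.66 to 6.97. Its suprabasal mean, 9.28, lay within the 9.25 to 9.72 of the other mice. CD-IMQ 5 had the lowest means of its group for the 6 suprabasal keratinocyte markers, 9.27 against 9.43 to 9.73, and for the 7 sebaceous gland markers, 7.01 against 7.24 to 7.44. Its mean for 9 neutrophil markers, 5.47, lay within the 5.09 to 5.59 of the other mice. The part of these markers in the SPRR2 values was not tested.

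**Figure D4:**
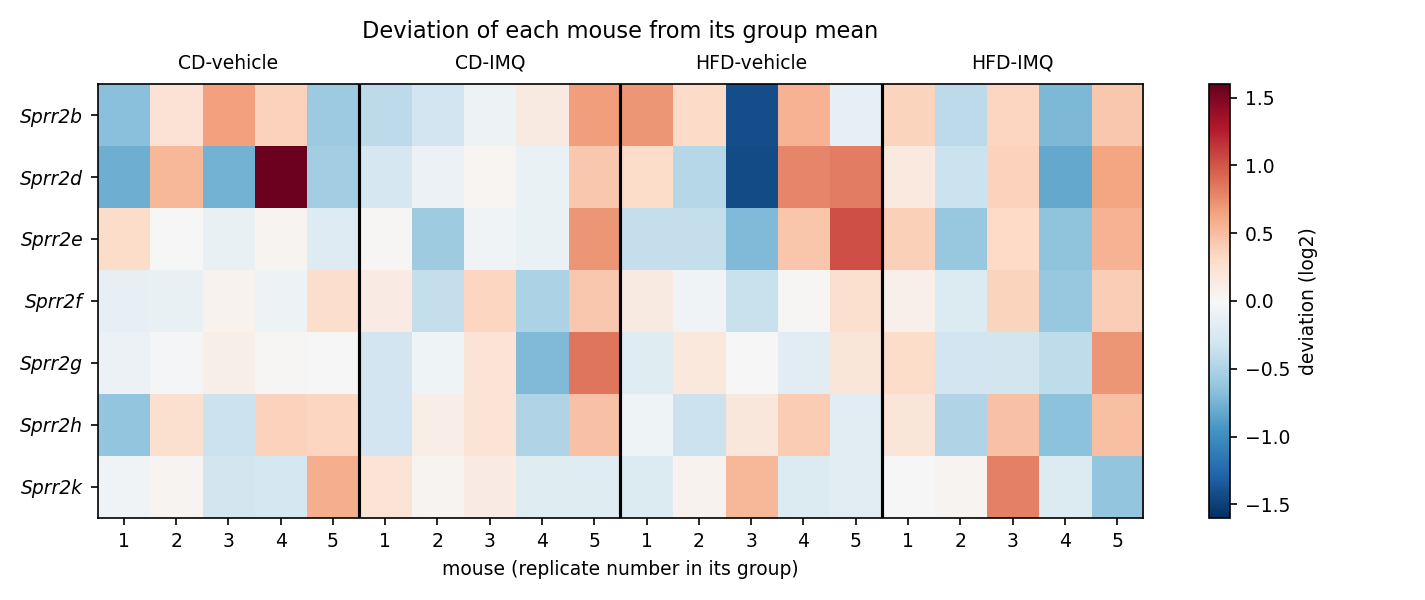
Deviation of each mouse (horizontal axis, 5 per group) from its group mean for each SPRR2 gene (vertical axis), in log2 units from blue (below) to red (above). CD-IMQ 5 and HFD-IMQ 5 are above their group mean in 6 of 7 genes and HFD-IMQ 4 is below in all 7.

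Between groups, too, averages of cell type markers changed, those of suprabasal keratinocytes among them. With imiquimod 3.91% of all genes passed upward and 7.02% downward on chow, and 3.65% and 2.24% on the high fat diet. For the diet in vehicle skin these shares were 1.22% and 0.956%. The 9 neutrophil markers averaged 3.26 in CD-vehicle, 5.40 in CD-IMQ, 3.58 in HFD-vehicle and 5.73 in HFD-IMQ, with 6 of 9 higher after the cream on chow and 7 of 9 on the high fat diet. Their median log2 change was 0.94 on chow (range 0.01 to 6.13) and 1.47 on the high fat diet (0.14 to 4.78), so they did not rise evenly. S100a8 and S100a9 are on this list, and which cells made their RNA was not tested. The Retnlg call on the high fat diet was lost in the fit of the high-fat groups alone (adjusted p = 0.096), among other alternatives. Suprabasal keratinocyte markers averaged 8.09 and 9.51 on chow (5 of 6 higher) and 8.95 and 9.49 on the high fat diet (2 of 6 higher). The Krt1 call on the high fat diet was lost in the fit of the high-fat groups alone (adjusted p = 0.106) and with quantile normalization (0.0676), among other alternatives. The Krt10 call on chow was lost with quantile normalization (0.0649) or without CD-vehicle 3 (0.053). Hair shaft and inner root sheath markers went the other way, from 7.55 to 3.07 on the high fat diet (9 of 10 lower) and from 4.51 to 3.07 on chow (5 of 10 lower). On chow the calls for Krt28 (adjusted p = 0.116) and Krt71 (0.064) were lost without CD-vehicle 2, and without some other arrays. On the high fat diet the Msx2 call was lost with low values raised (0.0874). For the diet in vehicle skin, where Sprr2d passed, 9 of the 10 hair markers (median log2 difference 3.21), 3 of the 6 suprabasal markers and 2 of the 9 neutrophil markers were higher on the high fat diet and none lower. In the fit of the vehicle groups alone the suprabasal calls for Krt1 (adjusted p = 0.0735), Dsc1 (0.0911) and Casp14 (0.103) were lost. So were the neutrophil calls for S100a8 (0.122) and S100a9 (0.144) and the hair calls for Tchh (0.0697) and Msx2 (0.127). The part of all these markers in the SPRR2 changes was not tested.

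Of the 4 remaining SPRR genes, 2 rose with imiquimod on chow and 1 on the high fat diet, where 3.91% and 3.65% of all genes rose. Sprr1b, an envelope precursor of the same family, rose with imiquimod by 4.19 ± 0.21 on chow (adjusted p = 9.28e-12) and by 2.48 ± 0.21 on the high fat diet (6.71e-08), and in vehicle skin it was higher on the high fat diet by 2.18 ± 0.21 (1.02e-05). Its interaction of -1.72 ± 0.29 passed (adjusted p = 0.00916). The rise of Sprr1b on chow, its diet difference in vehicle skin and its interaction share the CD-vehicle mice. Sprr1a rose with imiquimod on chow (1.80 ± 0.39, adjusted p = 0.00421) and was higher on the high fat diet in vehicle skin (2.31 ± 0.39, adjusted p = 0.00242, and 0.0506 in the fit of the vehicle groups alone). On the high fat diet the change of Sprr1a with imiquimod was -0.19 ± 0.39. Sprr3 and Sprr4 did not pass in any of the 5 comparisons.

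Partners of SPRR2 in the envelope rose with the cream as well. Among all genes 3.91% rose and 7.02% fell on chow, and 3.65% and 2.24% on the high fat diet. Of 23 structural partners 16 rose and 2 fell on chow (median log2 change 1.53), among them Rptn, which encodes repetin (5.83 ± 0.29), and the late envelope genes Lce3f (4.12 ± 0.26), Lce3c (4.09 ± 0.22) and Lce3d (3.90 ± 0.27). On the high fat diet 9 rose and 2 fell (median 0.50), the largest rise being that of Lce3f (3.96 ± 0.26). Those that fell were Flg2, a filaggrin-like gene (-1.20 ± 0.33 on chow and -1.82 ± 0.33 on the high fat diet), S100a10 on chow (-0.42 ± 0.11) and Crnn, which encodes cornulin, on the high fat diet (-2.45 ± 0.45). On chow the call for Flg2 was lost without CD-IMQ 5 (adjusted p = 0.07), CD-vehicle 4 (0.0509) or CD-vehicle 5 (0.0546), and that for S100a10 without CD-IMQ 5 (0.0666) or CD-vehicle 3 (0.0547). Of 5 transglutaminases 3 rose on chow, including Tgm3 (2.27 ± 0.30) and Tgm1 (1.48 ± 0.18), the main crosslinking enzymes of the envelope. On the high fat diet 2 rose, Tgm3 (1.36 ± 0.30) and Tgm1 (0.76 ± 0.18, adjusted p = 0.0103, and 0.0623 when the fit held the high-fat groups alone), and Tgm6 fell (-1.16 ± 0.32, adjusted p = 0.0273). The Tgm6 call was lost in the fit of the high-fat groups alone (adjusted p = 0.132), without HFD-IMQ 1 (0.0604) or HFD-IMQ 5 (0.0689) and with low values raised (0.0806).

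In vehicle skin the high fat diet went with higher values of 9 of the 23 partners and lower values of none (median 0.67). Among all genes 1.22% were higher and 0.956% lower. Rptn was higher by 2.83 ± 0.29 and Crnn by 2.19 ± 0.45 (adjusted p = 0.00992). When the fit held the vehicle groups alone, the calls for Crnn (adjusted p = 0.0979), Krt1 (0.0735), Flg (0.153) and Ivl (0.162) were lost. The median of the 7 SPRR2 genes in vehicle skin was 0.05. The interaction had a median of -0.62 over the partners, with Rptn (-2.94 ± 0.41) and Lce3c (-1.61 ± 0.32) passing, against a median of 0.36 over the SPRR2 genes. These comparisons share their vehicle groups, and the difference between the medians was not tested.

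**Figure D5:**
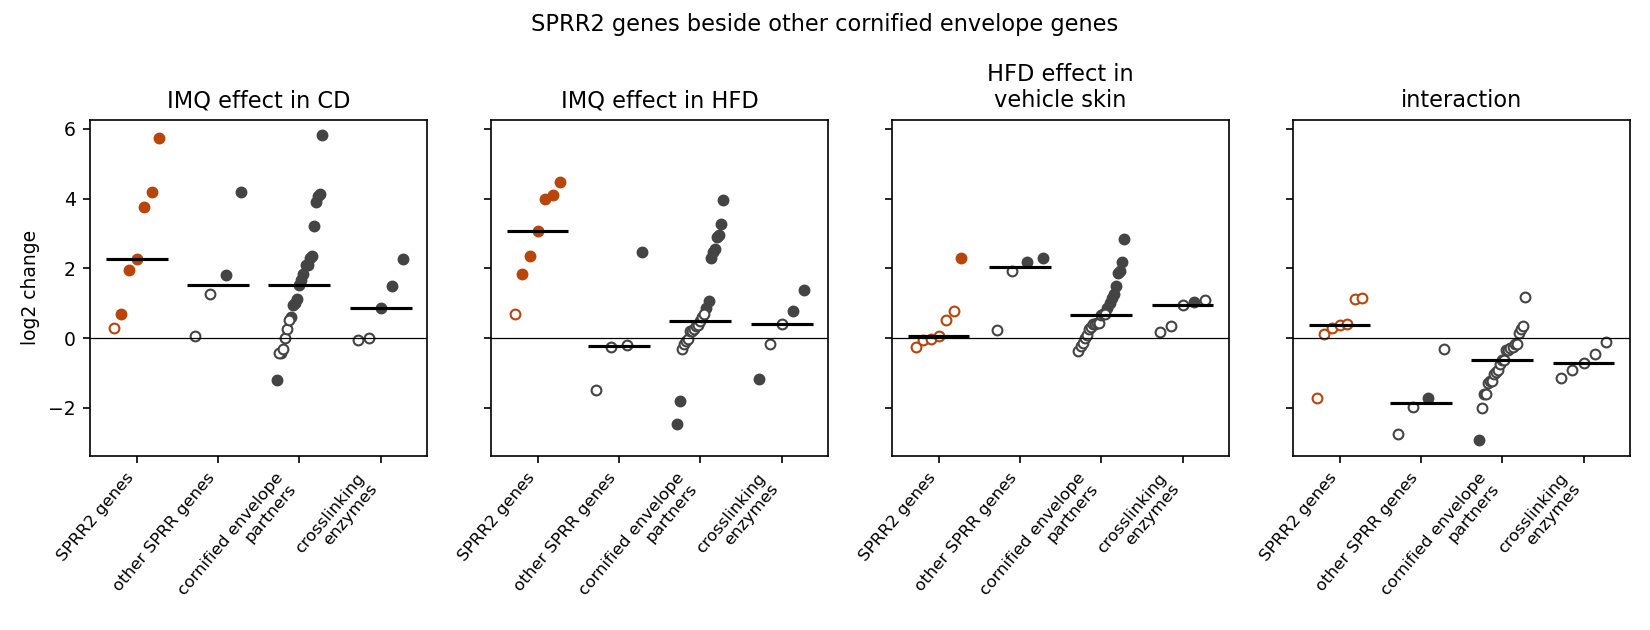
Log2 change (vertical axis) of each SPRR2 gene (orange) and each member of 3 lists of other envelope genes (grey) in 4 comparisons, with filled points for adjusted p below 0.05 and a line at each median. The median of the SPRR2 genes is 2.25 and 3.07 for imiquimod on chow and on the high fat diet, and 0.05 for the diet in vehicle skin, where that of the 23 envelope partners is 0.67.

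Of 23 measured transcription factors tied to SPRR2 or to late differentiation, 3 rose and 4 fell with imiquimod on chow. Among all genes 3.91% rose and 7.02% fell there, and 3.65% and 2.24% on the high fat diet. In vehicle skin 1.22% of all genes were higher on the high fat diet and 0.956% lower. Ehf, an epithelial ETS factor, rose on chow (1.82 ± 0.15, adjusted p = 3.13e-08) and on the high fat diet (1.16 ± 0.15, 3.05e-05), as did Grhl3, a grainyhead-like regulator of barrier formation (1.03 ± 0.19 and 0.98 ± 0.19). The third on chow was Prdm1 (0.71 ± 0.16) and on the high fat diet Nfe2l2 (0.39 ± 0.10), whose call was lost without HFD-vehicle 2 (adjusted p = 0.0572), HFD-IMQ 1 (0.0668) or HFD-IMQ 2 (0.0595). The AP-1 genes Fos (-3.17 ± 0.41), Junb (-1.67 ± 0.32) and Jun (-1.24 ± 0.15), whose products bind AP-1 motifs, fell on chow, and so did Klf4 (-0.47 ± 0.15, adjusted p = 0.0389), a factor of barrier formation. The Klf4 call was lost with quantile normalization (adjusted p = 0.132), array weights (0.0512) or the chow groups alone in the fit (0.0549), and without any 1 of CD-vehicle 1, 2 or 3 or CD-IMQ 2, 3, 4 or 5 (0.059 to 0.115). On the high fat diet these 3 AP-1 genes read 0.14 ± 0.41, 0.07 ± 0.32 and -0.03 ± 0.15 and did not pass. There 3 of the 23 rose and none fell. The other AP-1 genes on the list, Fosl1, Fosl2 and Jund, were not among the genes that passed in any comparison. Fos (interaction 3.31 ± 0.58, adjusted p = 0.00966) and Jun (1.21 ± 0.22, adjusted p = 0.0104) passed for the interaction. In vehicle skin 2 of the 23 were higher on the high fat diet and 4 lower. Ehf (0.93 ± 0.15), Fos (-2.58 ± 0.41) and Jun (-1.05 ± 0.15) also passed when the fit held the vehicle groups alone. For Fos and Jun the fall on chow, the lower value in vehicle skin and the interaction all share the CD-vehicle mice. They are therefore not separate findings. The calls for Grhl1 (adjusted p = 0.159 there), Junb (0.103) and Klf4 (0.0976) did not hold in that fit, nor without CD-vehicle 1 (0.0561, 0.0502 and 0.121) or CD-vehicle 3 (0.149, 0.067 and 0.145).

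Cytokines known to induce SPRR2 genes or to act on keratinocytes in such skin rose in part. Of 18 measured 5 rose on chow and 8 on the high fat diet, and none fell. Among all genes 3.91% rose on chow and 3.65% on the high fat diet, and 1.22% were higher on that diet in vehicle skin. The rises shared by both diets were those of Il1a, Il1f6, Il1f8 and Il1f9, members of the IL-1 family. Il1f6, which encodes IL-36 alpha, rose by 3.98 ± 0.35 on chow and 2.17 ± 0.35 on the high fat diet. Il1b rose on the high fat diet (2.16 ± 0.43, adjusted p = 0.00237), where its chow value was 0.77 ± 0.43 (0.291). The type 2 cytokine genes Il13 (-0.03 and -0.01) and Il4 (-0.01 and 0.01) did not pass in either diet, from levels near background. In vehicle skin Il1f6 (1.88 ± 0.35), Il1f9 (0.98 ± 0.22) and Il1a were higher on the high fat diet, and none of the 3 passed when the fit held the vehicle groups alone. In imiquimod-treated skin 0 members of any of these lists differed between diets, as 0 of all genes did.

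Among all other genes, those whose values ran closest to the average of the 7 members over the 20 arrays were found by the root mean square difference after each gene was centred on its own mean. The 5 nearest were Lce3e (0.32 log2 units), 2610528A11Rik (0.39), Il1f9 (0.40), which encodes IL-36 gamma, the beta-defensin gene Defb14 (0.41) and Lce3a (0.42). The members themselves lay between 0.35 for Sprr2h and 1.30 for Sprr2d from that average. Each member is part of the average, so these distances cannot be set directly against those of the other genes. The average also mixes members whose changes with imiquimod on chow ran from 0.28 to 5.73. Lce3e averaged 1.64 in CD-vehicle, 4.84 in CD-IMQ, 2.34 in HFD-vehicle and 5.28 in HFD-IMQ. Sprr2j-ps, an SPRR2 pseudogene with a feature of its own that is not on the list of members, lay at 0.42. It averaged 1.48 ± 0.19 (SD, n = 5) in CD-vehicle, 3.55 ± 0.55 in CD-IMQ, 1.45 ± 0.24 in HFD-vehicle and 4.84 ± 0.73 in HFD-IMQ.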

How the data were processed

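Total RNA (300 ng) from the skin of each mouse was prepared with GeneChip WT PLUS reagents, 1 Affymetrix array per mouse, per the labels' protocols. The deposited values are log2 intensities made by the authors with RMA in affy, per the submitters' processing notes, which give no versions. RMA normalizes all arrays together, so each value depends on the other arrays. Of 41345 features, 23521 name 1 gene, 1814 several and 16010 none. Only the first kind was used, with the feature of highest mean where a gene had several, which gave 22180 genes.

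The groups were fitted in 1 linear model with limma 3.58.1 in R 4.3.3, with 5 contrasts and Benjamini-Hochberg adjustment over all genes. A gene passed at an adjusted p below 0.05. The median standard error was 0.136 log2 units, and 5 arrays per group limit the precision. On simulated data for imiquimod on chow, with independent normal noise, 98% of randomly drawn genes changed by log2 1 were recovered, with 13 false calls. The members' standard errors in that comparison were larger than the median, from 0.19 for Sprr2f to 0.42 for Sprr2d. The simulation therefore does not give the power for the members or for the other comparisons. Mice of the same replicate number were not treated as paired in the main fit. Of 30 same-number correlations 4 exceeded 0.1 (range -0.217 to 0.320). Mice of different numbers were not compared in this way, so these values do not settle whether the numbers pair the mice. The members, gene lists and marker lists were chosen with earlier results of these data known. Genes outside the lists were named as the 5 nearest in pattern. The alternatives were other normalizations, features, filters, variance models and samples.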

Additional observations from a re-analysis of the deposited data

How the results depend on the processing

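For imiquimod 6 members passed on each diet, also under the alternatives except these: all 4 members tested passed on each diet with the filter on genes above the median level, on chow 5 passed with values below the array median raised to it, on the high fat diet 7 passed with array weights, and leaving out each array in turn gave 5 to 6 on chow and 6 to 7 on the high fat diet. For the diet in vehicle skin the count went from 1 to 0 with only the groups compared in the fit and to 0 with low values raised, and stayed at 1 to 1 over the arrays left out. For the diet in imiquimod skin it was 0 to 2 over the arrays left out. For the interaction it went from 0 to 1 with quantile normalization, 1 with arrays centred on their medians, 1 with array weights and 1 with the replicate number as a block (Sprr2f, adjusted p = 0.0224), and it was 0 to 2 over the arrays left out. The block changed no other count of members. Of the 42 pair differences 34 passed, with 32 to 35 over the arrays left out, 32 with quantile normalization and 36 with low values raised. The filter on the median level left out Sprr2f, Sprr2g and Sprr2k.

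Sign changes came only from leaving out single arrays, in estimates near 0. In vehicle skin the diet difference ranged from -0.13 to 0.40 for Sprr2b, from -0.093 to 0.0051 for Sprr2g and from -0.17 to 0.12 for Sprr2k, and the interaction from -0.0164 to 0.27 for Sprr2h. Outside these, 320 of the members' values kept their side of the threshold under the other alternatives, 3 lost and 5 gained a call. The cause was not tested. Values near or below the array medians limit what can be said of Sprr2e, Sprr2f, Sprr2g, Sprr2h and Sprr2k in vehicle skin. The same limit holds for Sprr2d, which lay below all array medians in 4 of the 5 CD-vehicle mice.

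Among the lists, a fit of only the groups compared lowered the count of genes that passed in vehicle skin from 6 to 3 for transcription factors, from 3 to 0 for cytokines and from 2 to 1 for other SPRR genes, and for imiquimod on the high fat diet from 3 to 1 for crosslinking enzymes. With low values raised, cytokines in vehicle skin went from 3 to 1. Transcription factors there also came to 3 without CD-vehicle 1 or 3, cytokines to 1 without CD-vehicle 1 or 3 or HFD-vehicle 1 or 4, and crosslinking enzymes went from 1 to 2 without HFD-vehicle 5 or HFD-IMQ 4 or with the filter on dim genes. For the interaction, partners went from 2 to 4 with the filter on dim genes or with array weights and to 5 without HFD-vehicle 3 and 4 without CD-vehicle 4, and cytokines from 0 to 1 with array weights or without either of these arrays.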
